A study of Mus musculus with 14 samples.

Results

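IL-1 family cytokines, their receptors and their inhibitors were examined in mouse kidneys before and after ischemia/reperfusion injury (IRI). The 9 genes were named by symbol, with earlier results of these data known, out of 24411 genes listed in the count files. They are the ligands Il1a, Il1b, Il18 and Il33, the receptor chains Il1r1, Il1rap and Il1rl1, and the inhibitors Il1rn and Il18bp. All 9 were found, and 7 of them had enough reads to be tested. Il1a and Il1rl1 did not pass the filter on low counts and are given by their counts.

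Members of this family raise or restrain inflammation. IL-1α and IL-1β, the products of Il1a and Il1b, bind the receptor encoded by Il1r1, which signals only after it recruits the accessory chain encoded by Il1rap, and the receptor antagonist encoded by Il1rn occupies the same receptor without recruiting that chain. IL-33 is stored in the nuclei of epithelial, endothelial and stromal cells and acts, when released, through ST2, the receptor encoded by Il1rl1, together with the same accessory chain. IL-18 is made by many epithelial cells and macrophages, is activated by caspase-1, and is neutralized in solution by the binding protein encoded by Il18bp. In the injured kidney, IL-1β and IL-18 are known as products of inflammasome activity, and IL-33 as an alarm signal of damaged tissue.

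Bulk RNA sequencing was performed on kidneys of 8-week-old male C57/B6 mice. There were 4 libraries at day 0, 5 at day 1 and 5 at day 3 after renal IRI, in which the blood supply of the kidney is blocked and then restored. No gene was deleted or drug given in any group according to the labels, which do not say whether the day 0 mice had a sham operation. They also do not say that each library came from a different animal, so p-values measure the spread between these libraries. Library names carry numbers of either 1 or 3 digits, and this number format was treated as a possible technical batch, although no source says what it stands for. All 4 day 0 libraries have 1-digit numbers. Replicates 3, 4 and 5 of day 1 and replicates 4 and 5 of day 3 have 1-digit numbers, and the other 5 libraries have 3-digit numbers.

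Reads on genes ranged from 12485579 to 20476979 per library. Kidney markers were abundant, with 8 proximal tubule genes summing to 3114 to 17369 CPM, the reads of a gene scaled to library size. Day 3 replicate 2 stood apart from the other day 3 libraries. Its level of Lcn2, a gene that injured tubules switch on, was 66.1 CPM, the lowest of the 5, where the median was 2062 CPM. Lrp2, which encodes the proximal tubule receptor megalin, was at 2569 CPM there, the highest of the 5, where the median was 488.0 CPM. Without that library, 4 members still rose at day 3.

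The 4 members that passed the test on either day were Il1b, Il1rn, Il1r1 and Il33, and the starts of these genes are shown so that their sequences can be set beside their changes. Each line gives 250 bases before the start and 50 from the start onward, 5′ to 3′ on the strand of the gene, from RefSeq on GRCm38.p6 (mm10). Il1b lies on the minus strand, at chr2:129371090-129371389. Il1rn is shown at its first start, at chr2:24336610-24336909, and Il1r1 at its first start, at chr1:40224830-40225129, and second start, at chr1:40266336-40266635, all on the plus strand. Il33 is shown at its second start, at chr19:29945540-29945839 on the plus strand. Capitals mark matches on either strand to an AP-1 motif (TGANTCA), the NF-kB consensus or a TATA box (TATAAA).
Il1b: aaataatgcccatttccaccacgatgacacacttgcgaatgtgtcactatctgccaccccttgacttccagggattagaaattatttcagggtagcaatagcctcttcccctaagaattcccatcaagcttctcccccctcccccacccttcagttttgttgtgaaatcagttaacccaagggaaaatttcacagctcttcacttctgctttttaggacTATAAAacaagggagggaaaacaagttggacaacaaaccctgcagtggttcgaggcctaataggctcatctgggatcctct
Il1rn start 1: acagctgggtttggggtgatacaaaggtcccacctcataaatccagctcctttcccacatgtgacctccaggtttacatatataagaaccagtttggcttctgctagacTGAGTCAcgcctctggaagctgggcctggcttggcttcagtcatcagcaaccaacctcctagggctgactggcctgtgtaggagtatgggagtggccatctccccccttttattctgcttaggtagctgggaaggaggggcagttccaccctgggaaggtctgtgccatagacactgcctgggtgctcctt
Il1r1 start 1: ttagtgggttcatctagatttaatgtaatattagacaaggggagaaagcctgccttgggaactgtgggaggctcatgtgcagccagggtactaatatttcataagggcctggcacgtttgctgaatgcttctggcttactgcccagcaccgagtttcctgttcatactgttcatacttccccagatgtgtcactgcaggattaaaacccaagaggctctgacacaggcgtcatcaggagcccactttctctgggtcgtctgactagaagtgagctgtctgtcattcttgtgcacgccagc
Il1r1 start 2: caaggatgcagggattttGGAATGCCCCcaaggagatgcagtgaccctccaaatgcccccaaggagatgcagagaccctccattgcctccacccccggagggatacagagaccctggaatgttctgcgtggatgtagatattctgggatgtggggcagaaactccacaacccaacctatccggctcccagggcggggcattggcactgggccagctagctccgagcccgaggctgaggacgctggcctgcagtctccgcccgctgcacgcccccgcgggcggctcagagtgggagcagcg
Il33 start 2: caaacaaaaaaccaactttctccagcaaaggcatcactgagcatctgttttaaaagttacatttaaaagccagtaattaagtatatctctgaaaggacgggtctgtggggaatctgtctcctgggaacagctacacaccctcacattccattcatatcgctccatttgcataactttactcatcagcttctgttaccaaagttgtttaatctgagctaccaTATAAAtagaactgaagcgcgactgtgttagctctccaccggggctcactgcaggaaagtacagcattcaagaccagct

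The TATA box begins 31 bases before the start in Il1b and 29 bases before the second start in Il33, whose first window holds it 203 bases upstream. In Il1rn the AP-1 motif begins 141 bases before the first start, while the window of the second start holds none of the 3 motifs and that of the third start holds only TATAAA, 14 bases after it. For Il1r1 the first window holds none of the 3 motifs and the second holds the NF-kB consensus, 232 bases before the start. Over 32851 promoter windows of 300 bases, 13.6% held TATAAA, 7.81% held TGANTCA and 8.46% held the NF-kB consensus. RefSeq windows were matched for all 9 members, 14 in all. The window of Il1a, on the minus strand at chr2:129309923-129310222, held TATAAA 32 bases and TGANTCA 12 bases before its start. These matches are letters in a window and say nothing of what binds there.

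Il1b rose after injury on both days. Its level was 0.690, 0.882, 0.442 and 0.846 CPM in the 4 day 0 libraries. At day 1 it was 4.52, 3.27, 4.90, 4.23 and 9.89 CPM. At day 3 it was 9.16, 1.24, 2.72, 2.89 and 13.9 CPM. Every library after injury lay above every day 0 library, and the day 3 libraries spread over the widest range. The mean rose from 0.715 ± 0.200 CPM (SD, n = 4) to 5.36 ± 2.60 (SD, n = 5) and 5.99 ± 5.39 (SD, n = 5). By edgeR's quasi-likelihood test, with Benjamini-Hochberg adjustment over 14300 genes, the log2 fold change was 2.89 ± 0.65 (SE) at day 1 (7.39-fold, adjusted p = 0.00347) and 3.05 ± 0.65 at day 3 (8.26-fold, adjusted p = 0.00345). In bulk tissue, fewer cells of a type and less RNA per cell cannot be told apart, and the same holds for more cells and more RNA per cell. Il1b lies on chromosome 2 at 129364570 to 129371139 (GRCm38), opposite an antisense transcript, Il1bos, and reads were counted by strand.

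**Figure D1:**
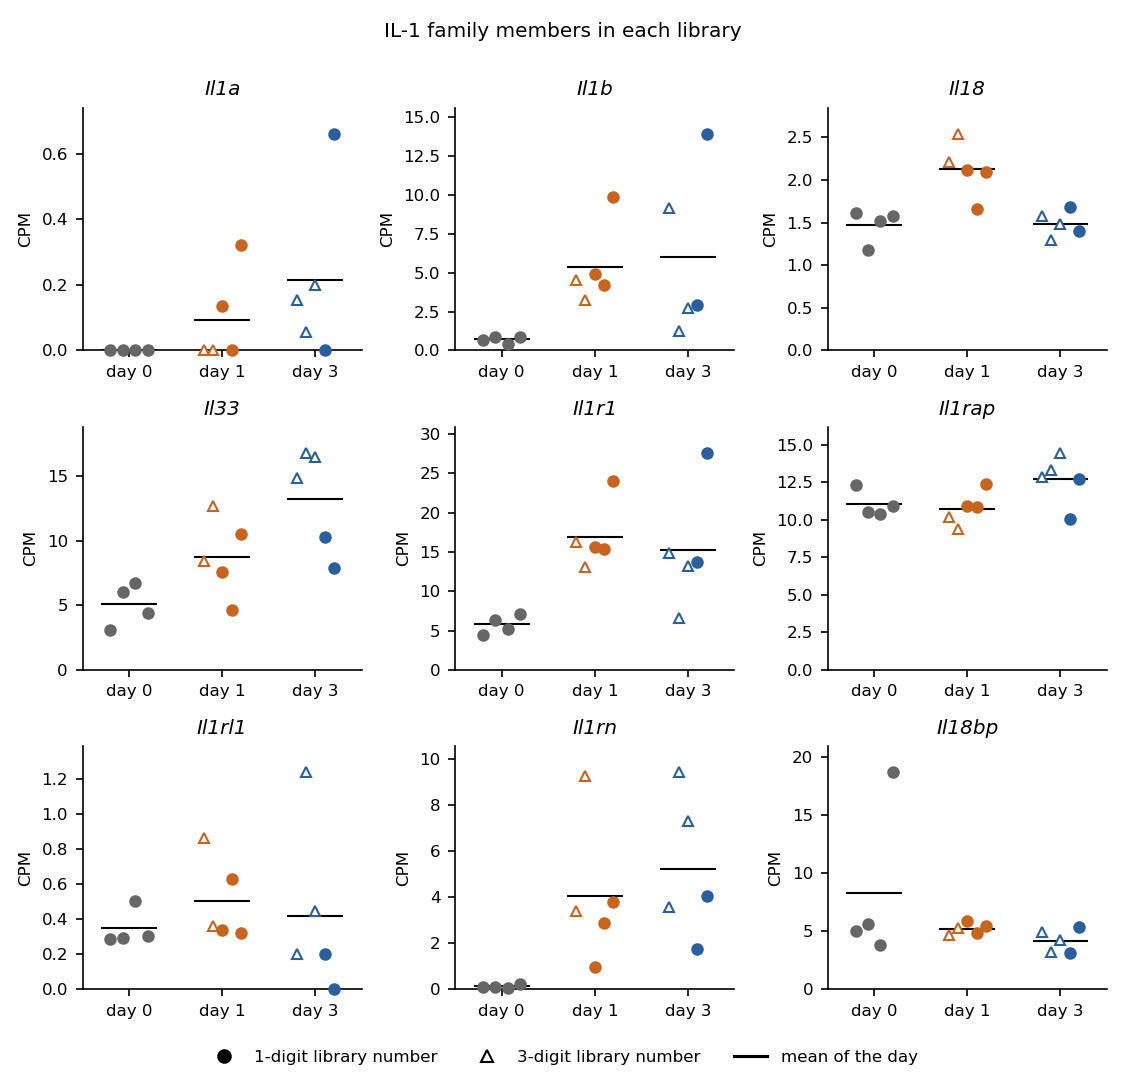
Level of each of the 9 members in CPM (linear axis from 0), 1 point per library, at day 0 (4 libraries), day 1 (5) and day 3 (5). Filled circles are libraries with 1-digit numbers, open triangles those with 3-digit numbers, and bars are the means of the days. Il1b and Il1rn lie higher in every library after injury than at day 0, Il1rap changes little, and 1 day 0 library holds the high value of Il18bp, 18.7 CPM.

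Il1a was close to absent. No read fell on it in the 4 day 0 libraries. The 5 day 1 libraries had 0, 0, 2, 0 and 4 reads, and the 5 day 3 libraries 3, 1, 4, 0 and 9. Reads appeared after injury in 6 of 10 libraries. A count of 0 allows 3 reads for the day 0 libraries together (0.0437 CPM). Pooled over the libraries of a day, Il1a was at 1.56-fold that level at day 1 and 4.84-fold at day 3. Replicate 5 of each day held most of these reads. Without it the value was 0.612 at day 1, so that no rise is shown there, and 2.70 at day 3. These values allow for counting error at day 0 only, not in the few reads after injury. In a fit without the filter, with 19167 genes, its adjusted p was 0.182 at day 1 and 0.0654 at day 3. Il1a is the neighbour of Il1b, at 129299610 to 129309972 on chromosome 2.

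Il18 was called on neither day. Its level was 1.61, 1.18, 1.52 and 1.57 CPM at day 0. At day 1 it was 2.21, 2.54, 2.11, 1.66 and 2.09 CPM. At day 3 it was 1.58, 1.30, 1.48, 1.68 and 1.40 CPM. The 5 day 1 libraries all lay above the day 0 libraries, while the day 3 libraries lay among them. The day 1 log2 fold change of 0.53 ± 0.23 missed the threshold (edgeR, adjusted p = 0.0799), and at day 3 it was 0.02 ± 0.23 (adjusted p = 0.960). Among 10 other settings 1 called the day 1 difference, a filter of at least 10 counts in every library (0.51, adjusted p = 0.0433), and the adjusted p over the 10 ranged from 0.0433 to 0.166. In a fit of all 14 libraries with 1 group per day and number format, the 3-digit libraries of day 1 gave 0.69 ± 0.27 (adjusted p = 0.0520). This value passed in 3 of 5 settings (0.0279 to 0.0830) and without day 3 replicate 1 (adjusted p = 0.0460) or 5 (adjusted p = 0.0443).

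Il33 rose at day 3. It stood at 3.11, 6.06, 6.69 and 4.41 CPM in the day 0 libraries. Day 1 libraries had 8.40, 12.7, 7.56, 4.63 and 10.5 CPM. Day 3 libraries had 14.8, 16.8, 16.4, 10.3 and 7.86 CPM. All 5 day 3 libraries exceeded all 4 day 0 libraries, and day 1 replicate 4 was the only day 1 library within the day 0 range. Means were 5.07 ± 1.62 (SD, n = 4), 8.77 ± 3.06 (SD, n = 5) and 13.2 ± 3.96 CPM (SD, n = 5). The log2 fold change at day 3 was 1.39 ± 0.33 (2.61-fold, edgeR, adjusted p = 0.00587), a call lost in a separate fit without the 3-digit libraries (0.86, adjusted p = 0.0581), and at day 1 it was 0.79 ± 0.32 (adjusted p = 0.0611). The day 1 value passed the threshold without day 1 replicate 4 (0.95, adjusted p = 0.0262), without day 3 replicate 5 (0.82, adjusted p = 0.0380) and by DESeq2 (0.79, adjusted p = 0.0360), as well as with 3-digit libraries alone, and its adjusted p ranged from 0.0144 to 0.141 over 10 other settings. Il33 spans 29925114 to 29960718 on chromosome 19.

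Il1r1, the signalling receptor of IL-1, rose on both days. Day 0 libraries had 4.49, 6.29, 5.24 and 7.07 CPM. Day 1 libraries had 16.3, 13.1, 15.7, 15.4 and 24.0 CPM. Day 3 libraries had 14.9, 6.64, 13.3, 13.7 and 27.6 CPM. Only day 3 replicate 2 overlapped with the day 0 libraries. The mean went from 5.77 ± 1.14 (SD, n = 4) to 16.9 ± 4.17 (SD, n = 5) and 15.2 ± 7.64 CPM (SD, n = 5). The log2 fold change was 1.55 ± 0.33 at day 1 (2.92-fold, edgeR, adjusted p = 0.00237) and 1.40 ± 0.33 at day 3 (2.63-fold, adjusted p = 0.00568). Without day 3 replicate 2 it was 1.59 at day 3 (adjusted p = 0.000684). The gene lies at 40225080 to 40317257 on chromosome 1 and overlaps an unclassified transcript, Gm38070, on its own strand, whose reads cannot be told apart from those of Il1r1.

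Il1rap, the accessory chain that the receptors of IL-1 and IL-33 share, stayed near its day 0 level. It measured 12.3, 10.5, 10.4 and 10.9 CPM at day 0. The day 1 values were 10.2, 9.40, 10.9, 10.9 and 12.4 CPM. The day 3 values were 12.9, 13.3, 14.4, 10.1 and 12.7 CPM. The 3 days overlapped throughout. The log2 fold change was −0.04 ± 0.15 at day 1 (edgeR, adjusted p = 0.845) and 0.20 ± 0.15 at day 3 (adjusted p = 0.304). Its standard errors were the smallest of the 7 members tested. In the 3-digit libraries of day 3 it was 0.30 ± 0.14 higher than at day 0 (adjusted p = 0.115), which passed under scaling by total counts only (0.46, adjusted p = 0.0371, where 5 settings ranged from 0.0371 to 0.138).

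Il1rl1, the receptor of IL-33, had few reads at any time. Day 0 libraries had 5, 5, 8 and 5 reads on it. Day 1 libraries had 16, 8, 5, 11 and 4, and day 3 libraries 4, 22, 9, 3 and 0. Day 3 held both the highest library, replicate 2, and the only library with no read, replicate 5, where 0 reads allow up to 3. The ratio of the pooled levels was 1.49 at day 1 (95% interval 0.880 to 2.58, counting error only) and 1.41 at day 3 (0.819 to 2.48), or 0.747 without day 3 replicate 2. Neither interval excludes an unchanged level, and edgeR without the filter gave adjusted p = 0.607 and 0.834. What size of change could be detected was not tested.

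Il1rn, the receptor antagonist, showed the largest fitted change of the 7 members tested. It was near the floor at day 0, with 2, 2, 1 and 4 reads, or 0.115, 0.118, 0.0631 and 0.242 CPM. The day 1 libraries had 3.39, 9.26, 0.954, 2.86 and 3.78 CPM. The day 3 libraries had 3.56, 9.40, 7.27, 1.75 and 4.04 CPM. No library after injury overlapped with day 0, and the lowest of them, day 1 replicate 3, was still at 0.954 CPM. Pooled over libraries, 9 reads at day 0 stood against 378 at day 1 and 465 at day 3, a ratio of levels of 32.7 (95% interval 17.0 to 72.0, counting error only) and 44.1 (23.0 to 97.1). Without day 1 replicate 2 the day 1 ratio was 19.6. The fitted log2 fold change was 4.84 ± 0.76 at day 1 (edgeR, adjusted p = 0.000325) and 5.20 ± 0.76 at day 3 (adjusted p = 0.000300). Il1rn lies on chromosome 2 at 24336853 to 24351494.

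Il18bp did not pass the test on either day, and 1 library set its day 0 level. Day 0 libraries had 5.002, 5.59, 3.85 and 18.7 CPM. Day 1 libraries had 4.63, 5.31, 5.86, 4.86 and 5.47 CPM. Day 3 libraries had 4.94, 3.21, 4.21, 3.09 and 5.36 CPM. Day 0 replicate 4 stood far above all other 13 libraries, which ranged from 3.09 to 5.86 CPM. With it, the log2 fold change was −0.66 ± 0.39 at day 1 (edgeR, adjusted p = 0.176) and −0.99 ± 0.39 at day 3 (adjusted p = 0.0613). Without it, the values were 0.12 (adjusted p = 0.734) and −0.21 (adjusted p = 0.538). The day 3 difference passed the threshold by DESeq2 (−1.01, adjusted p = 0.0330, where 10 other settings ranged from 0.0330 to 0.188) and without day 0 replicate 3 (−1.23, adjusted p = 0.0320), fits that both hold day 0 replicate 4. That library also had 604 reads on Jchain, the joining chain of antibodies from plasma cells, where the other 13 had 4 to 21, and its 6 urothelial markers summed to 49.0 CPM against 3.47 to 10.2 CPM in the other day 0 libraries. In day 1 replicate 2 and day 3 replicate 4 that sum was 96.4 and 36.9 CPM, with Il18bp at 5.31 and 3.09 CPM. The part of other cell types in its Il18bp level was not tested. Il18bp shares its locus on chromosome 7, at 102014885 to 102018690, with Numa1 on the opposite strand.

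In the comparison of day 1 with day 0, 3 of the 7 members tested rose (Il1b, Il1r1 and Il1rn) and 0 fell, and 4 did not overlap between the days. Among all 14300 genes, 42.1% passed the same threshold, 23.3% higher and 18.7% lower, and 42.0% did not overlap. The members' median log2 fold change was 0.79, against 0.01 for all genes. At day 3, 4 members rose (Il33 in addition) and 0 fell, against 33.3% of all genes, 19.5% higher and 13.8% lower. At that time 3 members did not overlap with day 0, as did 33.4% of all genes. Their median was 1.39, against 0.05. At day 1 the members' share of calls was thus near that of all genes. Both comparisons share the day 0 libraries. Scaling by total counts in place of TMM moved the median of all genes at day 3 from 0.05 to 0.19 and the split from 2783 higher and 1974 lower to 3625 and 1287, and the same 4 members rose.

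**Figure D2:**
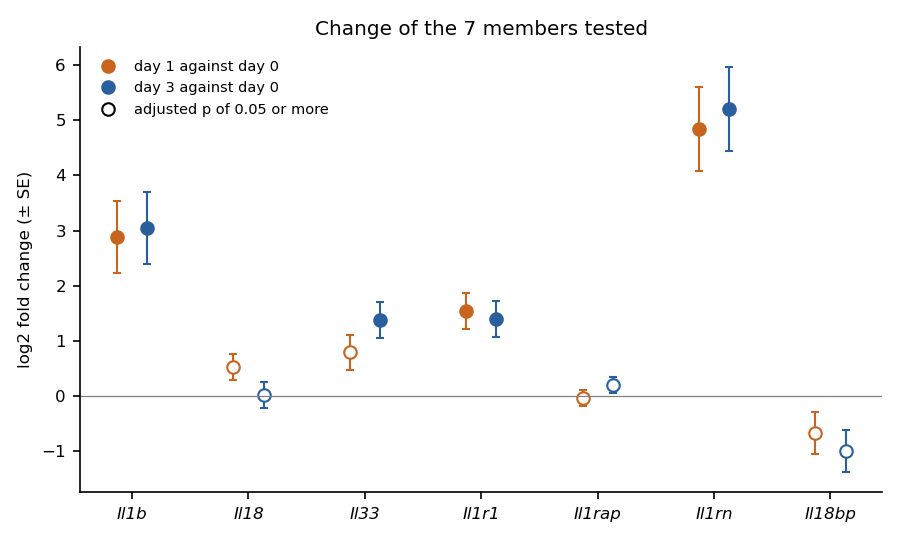
Log2 fold change (± SE, edgeR) of the 7 members tested, for day 1 against day 0 (orange) and day 3 against day 0 (blue), each from 5 libraries against 4. Filled points have an adjusted p under 0.05. Il1rn lies highest at 4.84 and 5.20, followed by Il1b at 2.89 and 3.05, and Il18bp lies lowest at −0.66 and −0.99 with neither point filled.

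Between day 1 and day 3, edgeR called 0 of 7 members, where 15.9% of all genes passed, 8.52% higher at day 3 and 7.39% lower, and 7.61% did not overlap. One member, Il18, had an unadjusted p under 0.05, and DESeq2 called 0. Il18 was lower at day 3 by a log2 fold change of −0.51 ± 0.22 (edgeR, adjusted p = 0.122). For Il33 the difference was 0.59 ± 0.30 (adjusted p = 0.182), and for Il1rn it was 0.36 ± 0.52 (adjusted p = 0.673). For Il1b it was 0.16 ± 0.53 (adjusted p = 0.859), and it turned to −0.43 without day 3 replicate 5 and to −0.05 without day 3 replicate 1. For Il1r1 it was −0.15 ± 0.29 (adjusted p = 0.758), and it turned to 0.04 without day 3 replicate 2, to 0.01 without day 1 replicate 5 and to 0.02 under scaling by total counts. A p that misses the threshold does not show that a gene stood level between the days.

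Per kilobase of exon, the order of the members changed with injury. At day 0 Il18bp led with 2.74 ± 2.30 CPM per kb (SD, n = 4), followed by Il33 with 1.76 ± 0.56 and Il18 with 1.42 ± 0.19. The lead of Il18bp rests on day 0 replicate 4, without which Il33 came first at 1.83 ± 0.66 and Il18bp next at 1.59 ± 0.29 (SD, n = 3). Il1rap (0.971 ± 0.078) and Il1r1 (0.907 ± 0.179) came next, and Il1b was at 0.375 ± 0.105. Il1rl1 (0.0504), Il1rn (0.0243) and Il1a (0) were lowest. At day 1 the first 3 were Il33 at 3.04 ± 1.06, Il1b at 2.81 ± 1.36 and Il1r1 at 2.66 ± 0.66 (SD, n = 5), which lie within each other's spread. At day 3 the same 3 led, at 4.58 ± 1.37, 3.14 ± 2.83 and 2.39 ± 1.20. Il18 (1.44 ± 0.15) and Il18bp (1.37 ± 0.33) were then level within their spread. Il1a and Il1rl1 were the lowest members on both days after injury.

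The ratio of inhibitor to ligand was taken within each library, which removes the library's scaling. Counts of Il1rn per count of Il1b were 0.133 to 0.286 at day 0, with a median of 0.155. The day 1 libraries lay between 0.194 and 2.83 around a median of 0.676, and the day 3 libraries between 0.289 and 7.59 around one of 0.605. In 3 of the 10 libraries after injury there were more reads of the antagonist than of the ligand, day 1 replicate 2 and day 3 replicates 2 and 3, all with 3-digit numbers. The exons of Il1rn are longer (5535 bases, against 1907 for Il1b), which raises its reads. Per kilobase Il1rn exceeded Il1b only in day 3 replicate 2 (1.70 against 0.649 CPM per kb). It was lower in day 1 replicate 2 (1.67 against 1.71) and day 3 replicate 3 (1.31 against 1.43). The day 3 median rests on few libraries, since it was 1.64 without replicate 1 or replicate 5, 1.53 without replicate 4 and 0.497 without replicate 2 or replicate 3. Counts of Il18bp per count of Il18 had medians of 3.93, 2.62 and 2.83 at days 0, 1 and 3, and the highest value, 11.9, was that of day 0 replicate 4. Here too the inhibitor has the longer exons (3026 against 1031 bases).

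**Figure D3:**
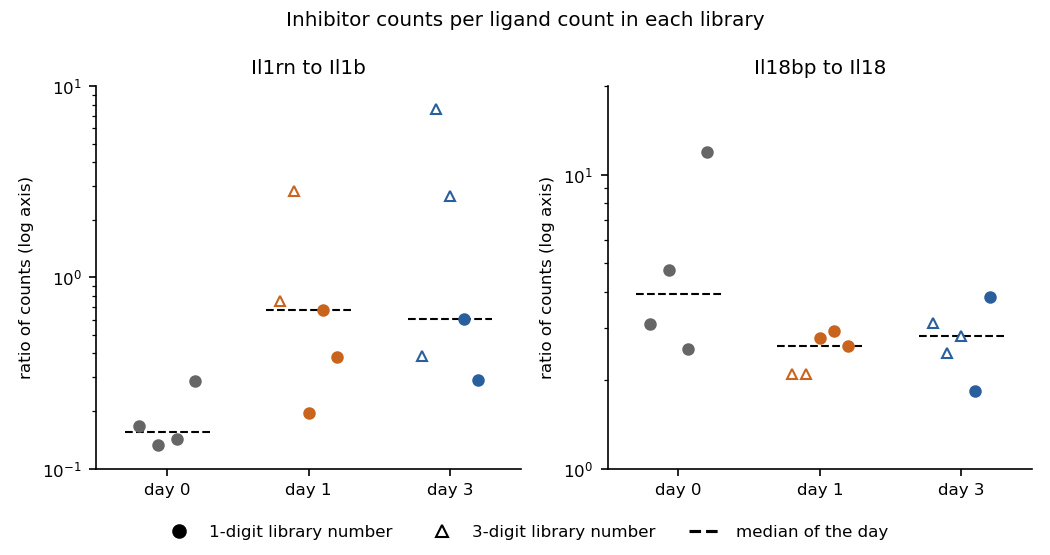
Ratio of counts within each library (log axis) for Il1rn to Il1b on the left and Il18bp to Il18 on the right, 1 point per library, with 1-digit libraries as filled circles, 3-digit libraries as open triangles and the median of each day as a dashed line. The left ratio spreads from 0.289 to 7.59 at day 3, and the right ratio stands apart only in 1 day 0 library at 11.9.

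Number format was examined because it divides the libraries of days 1 and 3. At day 1 edgeR called 0 of 7 members different between 3-digit and 1-digit libraries, where 35.0% of all genes passed, and at day 3 it called 0, where 18.5% passed. Members with an unadjusted p under 0.05 were Il1rn at day 1 and Il33 and Il1r1 at day 3, and DESeq2 called 0 on each day. Il1rn was higher in 3-digit libraries by 1.33 ± 0.58 on the log2 scale at day 1 (adjusted p = 0.0880) and by 1.22 ± 0.60 at day 3 (adjusted p = 0.163). Leaving out 1 library moved the day 1 difference from 0.43 (without day 1 replicate 2, adjusted p = 0.711) to 1.86 (without day 1 replicate 1, adjusted p = 0.0480), and the day 3 difference from 0.74 (without day 3 replicate 4) to 1.92 (without day 3 replicate 5), with no call. Il33 was higher in each of the 3 day 3 libraries with 3-digit numbers (14.8 to 16.8 CPM) than in the pair with 1-digit numbers (7.86 and 10.3 CPM), a difference of 0.82 ± 0.35 (adjusted p = 0.116). Il1r1 went the other way, with −0.83 ± 0.35 at day 3 (adjusted p = 0.110). It was −1.25 without day 3 replicate 4 (adjusted p = 0.0400) and −0.26 without day 3 replicate 5 (adjusted p = 0.737). Il1b did so too, with −0.94 ± 0.71 (adjusted p = 0.354), a value that was −2.07 without day 3 replicate 1 (adjusted p = 0.0296) and 0.58 without day 3 replicate 5. Cell type markers differed with format at day 3 too: in 3-digit libraries 5 of 10 macrophage markers were higher and 1 lower, 3 of 8 proximal tubule markers were higher and 0 lower, 5 of 8 endothelial markers were lower and 0 higher, and 2 of 7 fibroblast markers were lower and 0 higher. Of 7 neutrophil markers 1 was lower and 0 higher at day 3, with a median difference of −1.84 on the log2 scale, against 0.01 for all genes. At day 1, 3 of 8 proximal tubule markers were lower in 3-digit libraries, and 3 of 7 fibroblast, 3 of 6 urothelial and 2 of 5 tubular injury markers were higher. These counts are small, and most of their shares are near the 35.0% of all genes called. Endothelial markers went both ways (2 of 8 higher and 1 lower), as did distal tubule markers (1 of 8 higher and 1 lower). Of 10 macrophage and 7 neutrophil markers 0 were called. Their part in the members' values was not tested. The difference in format between day 1 and day 3 passed for 0 of 7 members by edgeR, with 0 at an unadjusted p under 0.05 and 0 by DESeq2, where 17.6% of all genes passed.

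Each format was set against day 0 within the 5-group fit over all 14 libraries. All day 0 libraries have 1-digit numbers. In the 3-digit values injury and number format therefore cannot be told apart. The 1-digit libraries gave 3 members higher at day 1, the same as all libraries together, where 58.5% of all genes passed. The 3-digit libraries gave 4 at day 1, Il33 in addition, where 41.6% passed. At day 3 each format gave the same 4 members, where 53.7% (1-digit) and 32.4% (3-digit) of all genes passed, but the 1-digit call of Il33 was lost in a separate fit without the 3-digit libraries (0.86, adjusted p = 0.0581). Il1b rose by 3.12 ± 0.68 on the log2 scale in 1-digit libraries (edgeR, adjusted p = 0.00155) and 2.43 ± 0.73 in 3-digit libraries (adjusted p = 0.0175) at day 1, the latter missing the threshold without day 1 replicate 1 (2.14, adjusted p = 0.101). At day 3 its values were 3.54 ± 0.72 (adjusted p = 0.00130) and 2.60 ± 0.67 (adjusted p = 0.0104). Here 1 library decides each: without replicate 5 the 1-digit value was 2.03 (adjusted p = 0.0675) and without replicate 4 it was 4.27 (adjusted p = 0.000621), and without replicate 1 the 3-digit value was 1.47 (adjusted p = 0.102). Between day 1 and day 3, 0 of 7 members passed by edgeR within 1-digit libraries (32.0% of all genes, 0 members at an unadjusted p under 0.05, 0 by DESeq2). Within 3-digit libraries 0 passed as well (13.9% of all genes), with Il18 and Il1rap at an unadjusted p under 0.05 and DESeq2 called Il1rap.

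For Il1rn the values of each format against day 0 were 4.15 ± 0.68 (1-digit, edgeR, adjusted p = 0.000211) and 5.48 ± 0.68 (3-digit, adjusted p = 7.5e-05) at day 1. At day 3 they were 4.35 ± 0.72 (adjusted p = 0.000326) and 5.57 ± 0.65 (adjusted p = 5.09e-05). Without day 1 replicate 2 the 3-digit value of day 1 was 4.58, and without day 3 replicate 5 the 1-digit value of day 3 was 3.65, both past the threshold. For Il1r1 they were 1.67 ± 0.30 (adjusted p = 0.000461) and 1.34 ± 0.33 (adjusted p = 0.00630) at day 1. At day 3 they were 1.84 ± 0.33 (adjusted p = 0.000592) and 1.01 ± 0.30 (adjusted p = 0.0223). The 3-digit values of Il1r1 missed the threshold without day 1 replicate 1 (1.14, adjusted p = 0.0653), and at day 3 without day 0 replicate 1 (0.90, adjusted p = 0.0635), day 0 replicate 3 (0.97, adjusted p = 0.0565), day 3 replicate 1 (0.79, adjusted p = 0.102) or day 3 replicate 3 (0.86, adjusted p = 0.0849).

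For Il33 the 3-digit libraries gave 1.66 ± 0.29 at day 3 (edgeR, adjusted p = 0.000980) and the 1-digit libraries 0.84 ± 0.33 (adjusted p = 0.0451). The 1-digit value lost the call under RLE size factors (0.82, adjusted p = 0.0501), in the separate fit without the 3-digit libraries (0.86, adjusted p = 0.0581) and when any of 7 single libraries was left out, with adjusted p from 0.0548 (day 1 replicate 3) to 0.238 (day 3 replicate 4); the others were day 0 replicates 1 and 4, day 1 replicate 1 and day 3 replicates 3 and 5. At day 1 the 3-digit value was 1.06 ± 0.32 (adjusted p = 0.0187), or 0.73 without day 1 replicate 2 (adjusted p = 0.203), and the 1-digit value was 0.57 ± 0.30 (adjusted p = 0.115), or 0.84 without day 1 replicate 4 (adjusted p = 0.0315).

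The libraries with the most and the least Il1b and Il1r1 after injury also had the highest and lowest sums of neutrophil markers. The 9 markers found, among them S100a8, S100a9, Csf3r, Cxcr2 and Retnlg, summed to 1.39 to 2.07 CPM at day 0, 51.0 to 222 CPM at day 1 and 19.6 to 487 CPM at day 3, and all 7 that were tested rose on both days, where 42.1% and 33.3% of all genes were called. Camp and Elane, the other 2, had 0 reads in every day 0 library. The highest sums were those of day 3 replicate 5 (487 CPM) and day 1 replicate 5 (222 CPM), the libraries with the most Il1b and the most Il1r1. The order was not kept throughout. At day 1 replicate 3 had the lowest sum (51.0 CPM) but more Il1b (4.90 CPM) than replicates 1 and 4 (4.52 and 4.23 CPM). The lowest sum after injury was that of day 3 replicate 2 (19.6 CPM), where Il1b (1.24 CPM) and Il1r1 (6.64 CPM) were also lowest. That library had the most Il1rn (9.40 CPM) and Il33 (16.8 CPM). The 10 macrophage markers, Adgre1 and Csf1r among them, summed to 119 to 168 CPM at day 0, 89.4 to 131 CPM at day 1 and 98.7 to 180 CPM at day 3. Of them, 2 rose and 1 fell on each day, a share of calls below or near that of all genes. Markers of fibroblasts and pericytes, 7 in number, summed to 125 to 135 CPM at day 0, 145 to 443 CPM at day 1 and 525 to 1154 CPM at day 3, and 5 of the 7 rose at day 3. Of 8 endothelial markers, 1 rose and 2 fell at day 1 and 0 were called at day 3, where 5 rose in 1-digit libraries and 2 fell in 3-digit libraries (53.7% and 32.4% of all genes called). Their sum had the same extremes as that of neutrophils. It was highest in day 3 replicate 5 (758 CPM), then day 1 replicate 5 (526 CPM), and lowest in day 3 replicate 2 (219 CPM). The part of these cells in the members' changes was not tested.

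**Figure D4:**
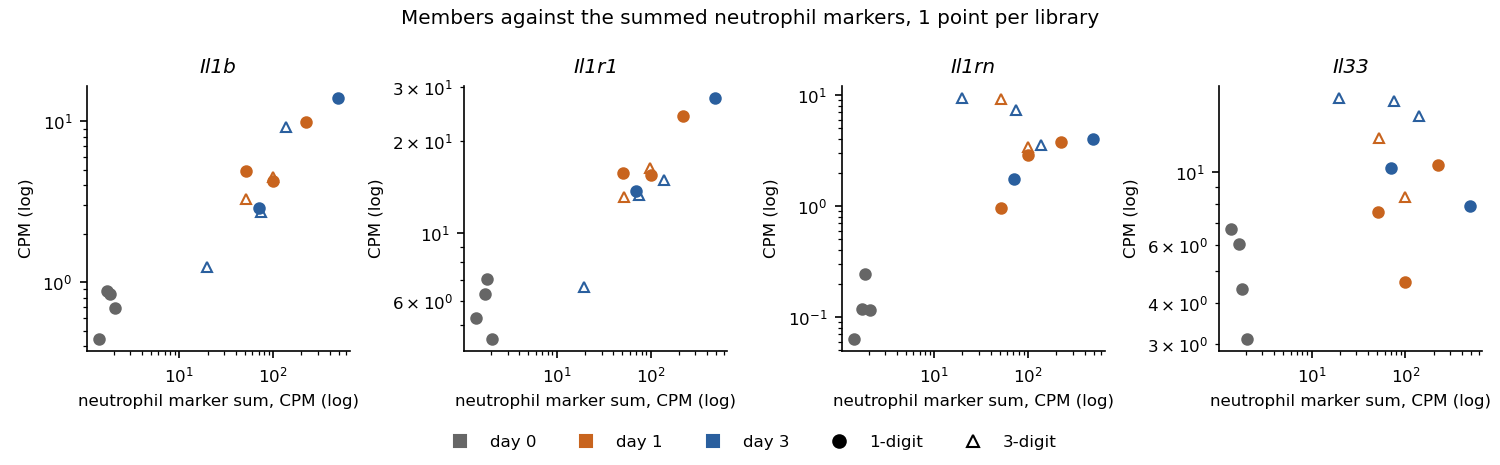
Level of Il1b, Il1r1, Il1rn and Il33 in CPM against the summed CPM of 9 neutrophil markers, both on log axes, 1 point per library (grey day 0, orange day 1, blue day 3, filled circles 1-digit and open triangles 3-digit libraries). The library with the highest sum, 487 CPM, has the most Il1b and Il1r1, and the injured library with the lowest sum, 19.6 CPM, has the most Il1rn and Il33.

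Genes whose pattern over the 14 libraries was most like that of each member were found from standardized log2 CPM, as the smallest root-mean-square difference among 13326 genes. Il1b was nearest to Il1r1 (0.265), then to Stfa2l1 (0.267) and Prkar1b (0.276), where the median over all genes was 1.37. Il1r1 was nearest to Ttc9 (0.236), Plekho2 (0.239) and Lrrfip1 (0.243), and Il1rn to Myof (0.297), Cdh3 (0.298) and Plec (0.304). Il33 had Clec4n (0.444), Gpr153 (0.444) and Fcgr3 (0.471) as its neighbours. Il18bp was nearest to Jchain (0.437), Mn1 (0.452) and Tspan13 (0.466), and Mn1 like Jchain was highest in day 0 replicate 4 (11.5 CPM against 0.619 to 2.76 in the others). Il18, with Net1 (0.524), Mt3 (0.551) and Hypk (0.557), and Il1rap, with Cd200r1 (0.547), Dok2 (0.558) and Islr (0.599), had no gene as near.

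Other genes of the family were counted from a list of 12, of which 7 were tested. At day 1, 6 rose and 0 fell, where 42.1% of all genes were called, and at day 3, 5 rose and 1 fell, where 33.3% were called. Il1r2, the decoy receptor that binds IL-1 without signalling, had 3, 0, 2 and 0 reads at day 0. It had 8.02, 2.497, 12.1, 15.9 and 27.5 CPM at day 1 and 14.3, 1.75, 5.29, 12.4 and 30.4 CPM at day 3. Every library after injury was higher than every day 0 library, and the highest were the same libraries as for Il1b. Its pooled level rose 156-fold (95% interval 66.6 to 481, counting error only) and 174-fold (74.2 to 536), with edgeR's adjusted p = 0.000307 and 0.000449. Without day 0 replicate 1, which holds 3 of the 5 day 0 reads, the ratios were 288 and 321.

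Il1f6, which encodes the ligand IL-36α, rose at day 1 and fell again by day 3. It had 2 reads in all at day 0, and 54, 76, 83, 157 and 143 reads in the day 1 libraries. The day 3 libraries had 32, 22, 39, 9 and 22 reads. Day 3 lay wholly below day 1 and above day 0, with a log2 fold change of −2.19 ± 0.48 from day 1 to day 3 (edgeR, adjusted p = 0.00998). At day 1 it was lower in 3-digit libraries by −1.45 ± 0.49 (adjusted p = 0.0343). Within 3-digit libraries the fall was not called, where 0 of the 7 other family genes and 13.9% of all genes passed. The pooled level was 200-fold that of day 0 at day 1 (55.0 to 1653, counting error only) and 52.9-fold at day 3 (14.4 to 442). Both day 0 reads were in replicate 2. Without it the level was 99.1-fold and 26.3-fold that of 3 reads for the other day 0 libraries together. Il1f9, which encodes IL-36γ, had 0 reads at day 0 and 59 and 72 at days 1 and 3. These were 15.3-fold and 20.5-fold the level of 3 reads for the day 0 libraries together. Il1f5, which encodes the antagonist of the IL-36 receptor, had too few reads to be tested and is named after its values were seen, since they went the other way. It had 7, 8, 9 and 7 reads at day 0, 1, 0, 1, 0 and 0 at day 1, and 3, 5, 3, 0 and 0 at day 3. The ratio of pooled levels to day 0 was 0.0502 at day 1 (0.00582 to 0.197, counting error only) and 0.303 at day 3 (0.137 to 0.619).

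Receptor chains of IL-18 and IL-36 also rose. Il18rap, the accessory chain for IL-18, increased by 2.44 ± 0.59 on the log2 scale at day 1 (edgeR, adjusted p = 0.00517) and 2.94 ± 0.60 at day 3 (adjusted p = 0.00250). Il1rl2, the IL-36 receptor, increased by 1.57 ± 0.52 (adjusted p = 0.0257) and 2.36 ± 0.52 (adjusted p = 0.00396), and its day 1 call was lost without day 0 replicate 3 (1.43, adjusted p = 0.0738), day 0 replicate 4 (1.28, adjusted p = 0.0733) or day 1 replicate 5 (1.24, adjusted p = 0.0674). Il18r1, the IL-18 receptor, was 1.36 ± 0.48 higher at day 1 (adjusted p = 0.0344), with 3-digit libraries above 1-digit ones by 1.57 ± 0.45 (adjusted p = 0.0179). That day 1 call was lost without any 1 of the 4 day 0 libraries or without day 1 replicate 1 or 2, with values from 0.99 to 1.47. Its day 3 value was 1.27 ± 0.48 (adjusted p = 0.0545), which passed without day 1 replicate 2 or 3 or day 3 replicate 2 or 5.

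Sigirr, an inhibitory receptor of the family that is abundant in kidney epithelium, was lower at day 3 than at day 0. It had 72.0 to 82.3 CPM at day 0, 47.4 to 83.7 CPM at day 1 and 24.2 to 69.4 CPM at day 3. The day 3 libraries lay below all day 0 libraries, and the highest of them was replicate 2. The log2 fold change was −0.36 ± 0.26 at day 1 (edgeR, adjusted p = 0.278) and −0.99 ± 0.26 at day 3 (adjusted p = 0.0114). At day 3 the 3-digit libraries were higher by 0.88 ± 0.28 (adjusted p = 0.0482). Tubule markers were lower at day 3 in part: 8 of the distal tubule summed to 7610 to 10068 CPM at day 0 and 2523 to 3890 CPM at day 3, with 5 lower and 0 higher, and 3 of 8 of the proximal tubule were lower and 0 higher, where 13.8% of all genes were lower and 33.3% were called in either direction. The proximal sum, 15779 to 17369 CPM at day 0, was also highest at day 3 in replicate 2 (14843 CPM, against 3114 to 7959 in the others). Their part in the level of Sigirr was not tested.

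**Figure D5:**
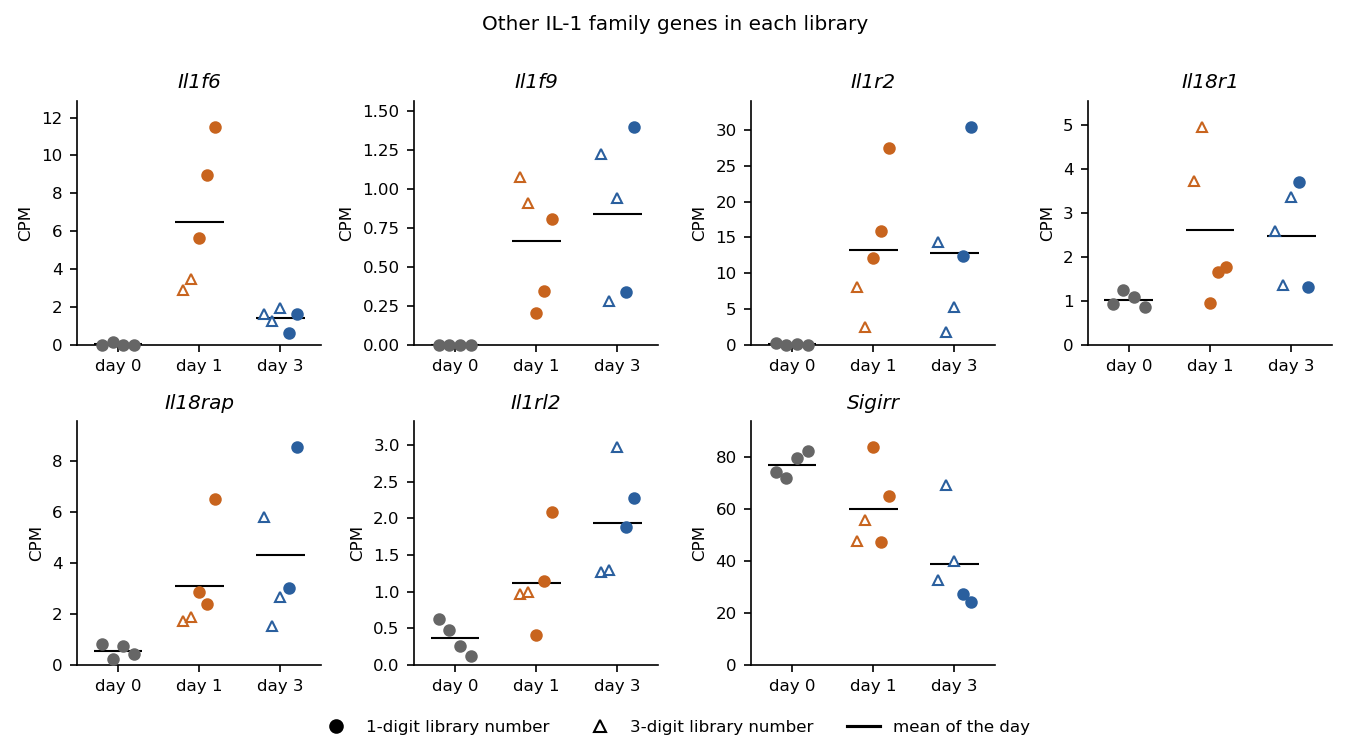
Level in CPM (linear axes from 0) of the 7 other family genes that were tested, 1 point per library at days 0, 1 and 3, with 1-digit libraries as filled circles, 3-digit libraries as open triangles and means as bars. Il1f6 is high at day 1 and lower at day 3, Il1r2 is high on both days, and Sigirr is lowest at day 3.

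Genes that process IL-1 family cytokines were counted from a list of 12, of which 10 were tested. At day 1, 3 rose and 1 fell, a share of calls near the 42.1% of all genes, and at day 3, 4 rose and 1 fell, beside 33.3% of all genes. Casp4, the caspase of the noncanonical inflammasome, rose by 1.93 ± 0.36 on the log2 scale at day 1 (edgeR, adjusted p = 0.00109), and Casp8 by 1.34 ± 0.21 (adjusted p = 0.000311). Nlrp3, the sensor of the inflammasome that activates caspase-1, rose by 1.96 ± 0.55 at day 3 (adjusted p = 0.0146), a call lost without day 0 replicate 3 (1.77, adjusted p = 0.0510). Nlrp1b, another sensor, rose by 1.16 ± 0.43 at day 1 (adjusted p = 0.0437), a call lost without any of 9 single libraries (adjusted p up to 0.119), and by 1.84 ± 0.43 at day 3 (adjusted p = 0.00539). Nlrc4, which encodes another inflammasome component, fell by 1.75 on the log2 scale at day 3 (adjusted p = 0.00103). Between day 1 and day 3 only Nek7, a partner of NLRP3, passed (0.40 ± 0.12, adjusted p = 0.0383), a call lost without any of 12 single libraries (adjusted p up to 0.0903).

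Of 18 genes that carry the signal of these receptors, 8 rose and 0 fell at day 1, where 23.3% of all genes rose, and 2 rose and 1 fell at day 3, where 19.5% rose. In 1-digit libraries 11 rose and 2 fell at day 1 and 8 rose and 0 fell at day 3, where 58.5% and 53.7% of all genes were called. In 3-digit libraries 6 rose and 0 fell at day 1 and 4 rose and 2 fell at day 3, where 41.6% and 32.4% were called. Between formats at day 1, 2 of the 18 were higher and 7 lower in 3-digit libraries, where 35.0% of all genes were called (2656 higher and 2345 lower). Myd88, the adaptor of IL-1 family receptors, rose by 1.61 ± 0.25 at day 1 (edgeR, adjusted p = 0.000294) and 1.09 ± 0.24 at day 3 (adjusted p = 0.00438). Rela, an NF-kB subunit, rose by 2.09 ± 0.38 at day 1 (adjusted p = 0.000967) and was lower at day 3 than at day 1 (−1.45 ± 0.35, adjusted p = 0.0149). At day 1 Rela was lower in 3-digit than in 1-digit libraries (−1.50 ± 0.27, adjusted p = 0.00152). Irak3, which restrains the receptor complex, rose by 1.77 ± 0.46 at day 1 (adjusted p = 0.00720). At day 3 Nfkb1, another NF-kB subunit, was up by 0.43 ± 0.12 (adjusted p = 0.0172), lost without day 0 replicate 1 (0.39, adjusted p = 0.0598) or 2 (0.40, adjusted p = 0.0566), and the receptor kinase Irak1 fell by 0.43 (adjusted p = 0.0112). From day 1 to day 3 the kinase Irak2 fell by 0.73 (adjusted p = 0.0459) and the ubiquitin ligase Peli1 by 0.63 (adjusted p = 0.0384). Each of these calls was lost without any of 11 single libraries, with adjusted p up to 0.105. Within 1-digit libraries 2 of the 18 genes rose and 4 fell from day 1 to day 3 (32.0% of all genes called). Within 3-digit libraries 0 were called (13.9% of all genes), so the falls of Rela, Irak2 and Peli1 were not called there.

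Of 13 genes that IL-1 is known to induce, and that other signals induce as well, 12 rose at day 1 and 10 at day 3, with 0 lower on either day, where 23.3% and 19.5% of all genes rose. Between day 1 and day 3, 5 of them fell and 0 rose, where 7.39% of all genes fell. Within 1-digit libraries 5 fell and 0 rose between the days (32.0% of all genes called), and within 3-digit libraries 1 fell and 1 rose (13.9%). Cxcl1, a chemokine that attracts neutrophils, fell by 2.91 on the log2 scale between those days (edgeR, adjusted p = 0.0106), and at day 1 it was lower in 3-digit libraries (−2.97 ± 0.57, adjusted p = 0.00207). Cxcl2, a related chemokine, had 3 reads in all at day 0, a pooled level 1488-fold higher at day 1 (509 to 7219, counting error only) and 142-fold higher at day 3 (48.4 to 692). Without day 0 replicate 3 these were 3394-fold and 325-fold, and without day 3 replicate 5 the latter was 75.5-fold. Its fall between those days (−3.55 ± 1.03, adjusted p = 0.0324) lost its call without any of 7 single libraries (adjusted p up to 0.0740). Ptgs2, the inducible cyclooxygenase, fell by 1.97 (adjusted p = 0.0210), lost without day 1 replicate 5 (−1.63, adjusted p = 0.0593) or day 3 replicate 1 (−1.87, adjusted p = 0.0529). Il6 had 0 reads at day 0. Against 3 reads for the day 0 libraries together, its level was 124-fold at day 1 and 36.7-fold at day 3. The latter was 16.8-fold without day 3 replicate 5. Lcn2 rose by 9.55 ± 1.09 (adjusted p = 3.58e-05) and 9.63 ± 1.10 (adjusted p = 5.13e-05). Among genes known downstream of IL-33 or IL-18, only 3 of 7 were tested. Areg, an epidermal growth factor receptor ligand and one of them, had 1, 126 and 47 reads at days 0, 1 and 3. Mast cells carry ST2, and of 6 listed mast cell genes only Tpsab1, a tryptase, passed the filter, while Mcpt4 had 0 reads in every library. Tpsab1 had 8 reads in all at day 0, all in replicate 4, and 3145 at day 1 and 3073 at day 3, with log2 fold changes of 7.99 ± 1.71 (edgeR, adjusted p = 0.00247) and 8.26 ± 1.71 (adjusted p = 0.00280). Its pooled level was 306-fold and 328-fold that of day 0, or 169-fold without day 1 replicate 1 and 210-fold without day 3 replicate 5. Without day 0 replicate 4 it was 617-fold and 661-fold that of 3 reads for the other day 0 libraries together. At day 1 it was higher in 3-digit libraries by 4.28 ± 0.82 (adjusted p = 0.00207). The other 5 genes had too few reads to be tested. In the libraries with the highest sums over the list, day 1 replicate 1 (95.1 CPM) and day 3 replicate 5 (104 CPM), 5 and 4 of the 6 genes had 0 reads, so nothing is read from Tpsab1 about mast cells.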

How the data were processed

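Total RNA of mouse kidneys was sequenced after TruSeq library preparation. By the submitters' processing notes the reads were trimmed with Trimmomatic and aligned with STAR to mm10. The versions and the gene annotation are not given in the sources used here. The authors deposited raw counts per gene symbol for each library, not normalized and of uniquely mapped reads, with columns for unstranded reads and for each strand. The strand column used held 98.5% to 98.8% of strand-assigned reads, and the 4 entries that name no gene were left out of library sizes and tests (29.0% to 38.3% of reads). The members, the lists and the tests were chosen with earlier results of these data known.

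The tests were run with edgeR 4.0.16 under R 4.3.3 (quasi-likelihood test, TMM, filterByExpr by day, 1 term per day over 14 libraries), limma 3.58.1 and, as an alternative, DESeq2 1.42.0. A change was an adjusted p under 0.05 over 14300 genes. Number format entered a 5-group model, 1 group for every combination of day and format present. Standard errors came from the F value, log2 CPM used a prior count of 2, and lengths per kilobase and positions came from GENCODE M21 on GRCm38. The fit was tested on simulated data. Named were all 9 members, other family genes with a mean of at least 0.5 CPM on some day, and from the pathway lists up to 3 genes with the largest change among those called in a comparison, the 3 genes most like each member in pattern (mean of at least 1 CPM), and genes that define a cell type. Alternatives were the unstranded column, other scaling, filters, DESeq2, number format as a term or alone, a replicate block, prior count 0.5 and leaving out each library. No library was a repeat of another of its day (chi-square over degrees of freedom between 5.82 and 235), and pairs from different days were not compared in this way. Intervals cover counting error only, and a fold set against 3 reads allows for it at day 0 alone. A named gene of the pathway lists is not reported here.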

Additional observations from a re-analysis of the deposited data

Results flagged for a closer look

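Of 33 groups of 4 or 5 libraries examined, 4 had a library far from the others by Dixon's criterion, where chance gives about 1.65. Il1b was at 9.89 CPM in day 1 replicate 5, where the other 4 libraries of that day had 3.27 to 4.90 CPM. The neutrophil and endothelial marker sums were also the highest of that day in this library. Il18bp was at 18.7 CPM in day 0 replicate 4, where the other 3 had 3.85 to 5.59 CPM. Il1rl1 was at 0.505 CPM in day 0 replicate 3, where the others had 0.287 to 0.302 CPM, a difference of 8 reads against 5. The ratio of Il1rn to Il1b counts was 2.83 in day 1 replicate 2, where the others had 0.194 to 0.750. No cause was tested for any of them.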

How the results depend on the processing

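The calls of Il1b, Il1rn and Il1r1 on both days held under every alternative that kept the gene and without each single library. Il33 at day 3 held in all except a separate fit without the 3-digit libraries (0.86, adjusted p = 0.0581, where 10 settings ranged from 0.000224 to 0.0581). With at least 10 counts in every library, Il1b and Il1rn leave the test, and called members went from 4 to 2 at day 3, from 3 to 1 in the 1-digit libraries of day 1, and from 4 to 2 in each format at day 3. DESeq2 called 1 member (0 by edgeR) between the days in 3-digit libraries. The 1-digit libraries alone gave 8119 genes changed at day 3 (4757 with all) and 5193 between days 1 and 3 (2276 with all). Scaling by total counts gave 1721 genes higher and 487 lower between days 1 and 3, where TMM gave 1219 and 1057, and moved the median of all genes there from 0.02 to 0.17. Among uncalled members, signs turned in these settings. Under the unstranded column Il1rap in 1-digit libraries of day 3 was −0.079 and Il18 in 3-digit ones 0.043. Under total counts Il1r1 between days 1 and 3 was 0.018, Il18bp between formats at day 1 0.10, Il1rap in 1-digit libraries of day 1 −0.062 and Il18 in 3-digit ones of day 3 0.14. Il18 at day 3 was −0.00060 under RLE, −0.021 without a filter, −0.00028 by DESeq2, −0.047 with format as a term and −0.013 with 3-digit libraries alone. With 1-digit libraries alone Il1rap was 0.076 at day 1 and −0.013 between days 1 and 3, and Il1r1 0.16 between days 1 and 3. Same-numbered replicates share only a number (correlation of deviations from −0.175 to 0.261, over 0.1 in 4 of 13 pairs). The replicate block turned Il1b between days 1 and 3 to −0.15 and changed no member's call. Among other named genes it ended the day 1 calls of Il18r1, Il1rl2 and Nlrp1b and the fall of Cxcl2 from day 1 to day 3.

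Leaving out each library gave 1269 to 3350 genes changed between days 1 and 3, 0 to 1 members different by format at day 1 and at day 3, 2 to 5 members called in 3-digit libraries of day 1, and 2 to 4 in each format at day 3. Log2 fold changes that turned sign ranged as follows. Against day 0, Il1rap at day 1 ranged from −0.093 to 0.016, Il18bp at day 1 from −0.90 to 0.12 and Il18 at day 3 from −0.076 to 0.065. Between days 1 and 3, Il1b ranged from −0.43 to 0.50 and Il1r1 from −0.50 to 0.041. Between formats at day 3, Il1b ranged from −2.07 to 0.58, Il18 from −0.23 to 0.058 and Il18bp from −0.38 to 0.39. In 1-digit libraries Il1rap ranged from −0.018 to 0.10 and Il18bp from −0.85 to 0.16 at day 1, and Il18 from −0.070 to 0.22 and Il1rap from −0.10 to 0.21 at day 3. In 3-digit libraries Il18bp ranged from −0.97 to 0.047 at day 1 and Il18 from −0.11 to 0.061 at day 3. Depth limits Il1a, Il1rl1 and the day 0 level of Il1rn, which rest on at most 8 reads per library at day 0. The cause of these shifts was not tested.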
